A study of Homo sapiens with 2 samples.

Results

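The genes described here are 9 replication-independent histone variant genes, H3-3A, H3-3B, H2AZ1, H2AZ2, H2AX, MACROH2A1, MACROH2A2, H1-10 and CENPA. They were taken by name from 19970 protein-coding genes on chromosomes 1 to 22 and X. A peak belonged to a gene when its summit lay in the gene record or no further than 1 kb from a transcription start site (TSS) in the annotation. By this rule 17 of 33349 peaks fell at these genes. The peaks come from HCT116, a human cell line established from a colorectal carcinoma. The cells were untreated and cross-linked with formaldehyde. One library precipitated with an antibody against H4R3me2a, asymmetric dimethylation of arginine 3 of histone H4, was compared with 1 library of input DNA from the same line. There were no replicates, so no difference below has a replicate check and no p-value is given. Peaks describe chromatin at the genes and say nothing of their expression.

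Most histone proteins are made in S phase from clustered, intronless replication-dependent genes whose mRNAs end in a stem-loop in place of a poly(A) tail. The variant genes lie outside these clusters, are transcribed in and outside S phase, give polyadenylated mRNAs and in most cases hold introns. Their products replace the canonical histones at particular places: H3.3 in transcribed and repeated chromatin, H2A.Z around start sites, CENP-A at centromeres, and macroH2A in repressed chromatin. H4R3me2a is placed mainly by the arginine methyltransferase PRMT1 and is known as a mark of active chromatin.

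The division into both classes was checked in the reference sequence. The stem-loop, searched on the sense strand as GGNNCTTNTNANNGCC (N is any base) in the exons of the canonical transcript and the 100 bp beyond its end, was found in 69 of 69 replication-dependent genes on chromosomes 1 and 6. It was found in 141 of all protein-coding genes (0.706%) and in 1 of the 9 variant genes, H2AX, which is known to give both kinds of mRNA end. The commonest form, in 40 of the 69 genes, is shown beside that of H2AX (chr11:119094898-119094913, minus strand of GRCh38). All 16 bases are the element and are in capitals.
replication-dependent genes: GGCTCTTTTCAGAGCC
H2AX: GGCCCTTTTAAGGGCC

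At least 1 peak was found at 7 of the 9 genes (77.8%, 95% exact interval 39.99 to 97.2%), and H2AZ1 and H2AZ2 had none. The same rule found a peak at 47.2% of all protein-coding genes, a share inside that interval. Within 1 kb of a TSS a peak was found at 6 of the 9 genes (29.9 to 92.5%). The share of all genes, 31.6%, lies inside that interval. Within 1 kb of the 5' end of the gene record a peak was found at 5 (21.2 to 86.3%). The share of all genes, 19.2%, lies just below that interval. With a window of 500 bp the 5 genes became 2, and no share of all genes is given there, so no difference is drawn. Of the 5 peaks near a 5' end, those of H3-3B and CENPA lay 6480 and 21540 bp upstream of the start of the canonical transcript. They are shared with the neighbouring genes UNK and SLC35F6, and those of MACROH2A1 and H1-10 are also shared with other genes. Each variant gene had a median of 1 peak (range 0 to 7), and the median over all protein-coding genes was 0. Intervals here and below cover counting error only.

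The pattern shared by the 7 genes was a peak shortly downstream of the TSS of the canonical transcript, the 1 transcript that GENCODE marks as representative. The first such summit lay 270 bp downstream in MACROH2A1, 278 bp in H3-3B, 445 bp in CENPA and 744 bp in H3-3A. It lay 824 bp downstream in H1-10, 829 bp in H2AX and 1351 bp in MACROH2A2. This span was read from the summits themselves, and no share over all protein-coding genes is given for it. Over all protein-coding genes with a peak, the nearest summit on either side lay a median of 1229 bp from the canonical TSS. The pattern is therefore not shown to be particular to these genes. H1-10 and H2AX are only 1516 and 1592 bp long, so most of each gene lies in the span. No summit at any of the 9 genes lay between 250 bp upstream and 50 bp downstream of the canonical TSS. For that short stretch no share over all protein-coding genes is given, so its lack of summits is not shown to be particular to these genes. A summit 0 to 1 kb downstream was found in 6 of the 9 genes (66.7%, 29.9 to 92.5%) and in 17.8% of all protein-coding genes. That window was chosen after the positions were known.

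**Figure D1:**
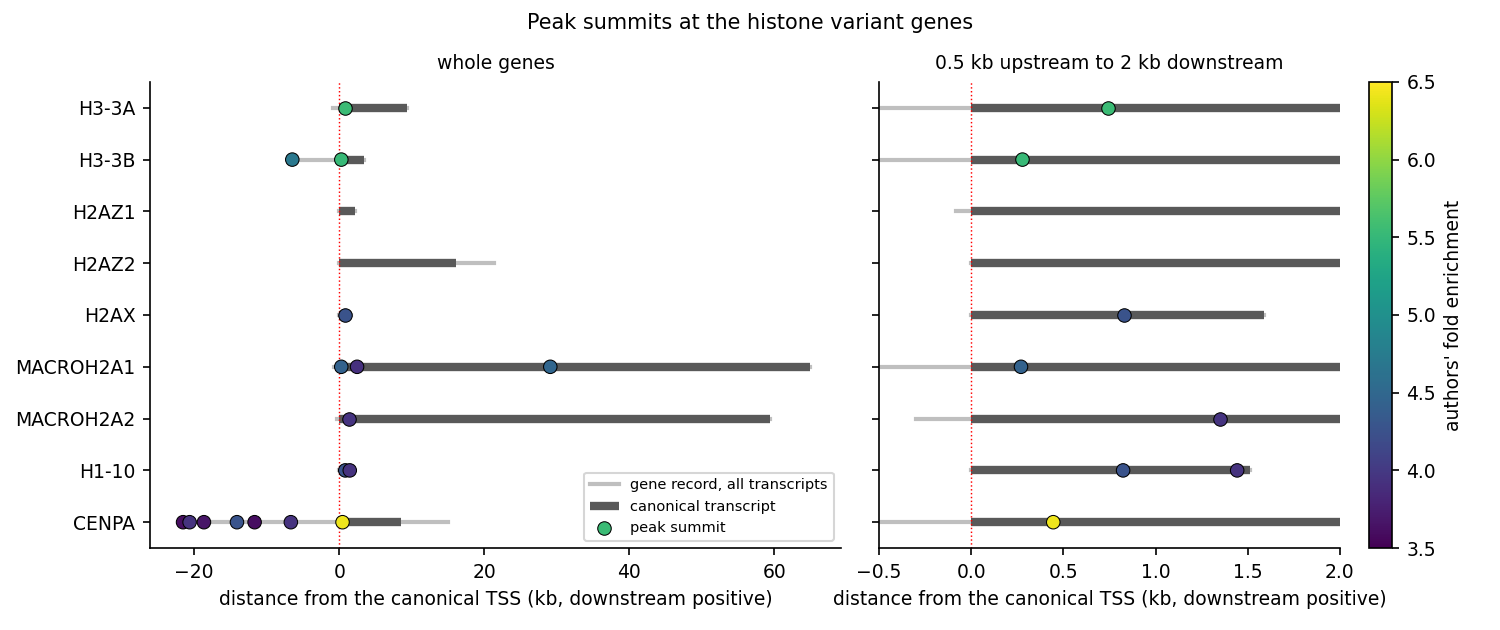
Peak summits at the 9 genes, by distance from the canonical TSS in kb (left, whole genes; right, 0.5 kb upstream to 2 kb downstream). Thick bars are canonical transcripts, thin bars the whole gene record, and colour gives the authors' fold; 7 genes have a summit 270 to 1351 bp downstream, while H2AZ1 and H2AZ2 have none.

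Sequences of 4 of these downstream peaks are printed because they carry that pattern, and the upstream peak of H3-3B because it differs from them in composition. Each is the whole peak, 5' to 3' on the strand of the gene, from the GRCh38 reference. CpG dinucleotides are in capitals. Peaks that touch an untranslated region (UTR) are not printed.
H1-10 chr3:129315309-129315560, - strand: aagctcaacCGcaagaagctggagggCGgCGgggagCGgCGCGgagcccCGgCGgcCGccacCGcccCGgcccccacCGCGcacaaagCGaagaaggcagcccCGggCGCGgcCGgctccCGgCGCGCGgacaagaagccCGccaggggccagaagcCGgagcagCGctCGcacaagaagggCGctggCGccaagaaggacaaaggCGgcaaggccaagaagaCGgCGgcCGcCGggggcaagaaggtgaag
CENPA chr2:26786430-26786643, + strand: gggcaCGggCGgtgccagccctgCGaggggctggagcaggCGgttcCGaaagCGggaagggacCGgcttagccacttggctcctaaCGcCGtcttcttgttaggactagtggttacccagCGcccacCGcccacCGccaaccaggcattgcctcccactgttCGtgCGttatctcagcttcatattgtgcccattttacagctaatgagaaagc
MACROH2A1 chr5:135398738-135399007, - strand: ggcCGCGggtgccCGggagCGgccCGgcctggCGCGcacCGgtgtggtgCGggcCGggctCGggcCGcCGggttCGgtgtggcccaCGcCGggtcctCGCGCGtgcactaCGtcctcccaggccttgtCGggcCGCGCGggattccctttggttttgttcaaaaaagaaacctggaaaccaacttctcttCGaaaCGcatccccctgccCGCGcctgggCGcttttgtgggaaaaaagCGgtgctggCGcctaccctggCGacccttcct
MACROH2A2 chr10:70054191-70054338, + strand: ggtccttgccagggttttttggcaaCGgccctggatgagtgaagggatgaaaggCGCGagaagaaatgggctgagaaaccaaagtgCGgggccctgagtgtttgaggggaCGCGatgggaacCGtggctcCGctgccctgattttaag
H3-3B, upstream peak, chr17:75786192-75786363, - strand: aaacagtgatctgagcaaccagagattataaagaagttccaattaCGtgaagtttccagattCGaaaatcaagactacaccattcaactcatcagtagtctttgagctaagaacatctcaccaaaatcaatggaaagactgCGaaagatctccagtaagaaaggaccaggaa

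The H1-10 peak held 33 CpGs in 252 bp (74.2% GC) and the MACROH2A1 peak 32 in 270 bp (68.9%). The CENPA peak held 14 in 214 bp (60.3%) and the MACROH2A2 peak 8 in 148 bp (57.4%). The upstream peak of H3-3B held 3 CpGs in 172 bp at 38.4% GC. Over the 200 bp on either side of the summit, GC content at the 17 peaks had a median of 58.4% (range 38.7 to 76.6%), and the median of all peaks was 59.6%. The lowest value was that of the upstream H3-3B peak and the highest that of H2AX.

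H3-3A and H3-3B both encode H3.3, the H3 variant that is deposited outside replication, and each had a peak in the first intron. At H3-3A (chromosome 1, 226061851 to 226072019, plus strand) the only peak, chr1:226063434-226063565, had 11 fragments at its summit over a background of 1.17. Its fold of 5.54 (−log10 q 4.05) was above that of 92.1% of all peaks. The fold is the authors' ratio of the pileup to the local background, with 1 added to both. The pileup is the number of fragments over the summit. The summit lay 6 bp upstream of an alternative TSS inside the gene, and GC content around it was 48.4%, below the median of all peaks.

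At H3-3B (chromosome 17, 75776434 to 75785893, minus strand) the downstream peak, chr17:75779289-75779649, had 13 fragments over 1.54 and a fold of 5.52 (−log10 q 4.42). This was the highest pileup of the 17 peaks. The sequence at the summit was 70.8% GC and lay in the first intron of the canonical transcript, in an exon of a non-coding transcript of the gene. The other peak, chr17:75786192-75786363, had 8 fragments over 0.914 and a fold of 4.70. It lay 6480 bp upstream of the canonical TSS and 366 bp upstream of the longest transcript's start, inside the neighbouring gene UNK, so it is shared with UNK. H3-3B lies in peak-rich sequence, with 76 summits within 100 kb of its TSS against 8 for H3-3A.

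The H3-3A exons are mostly not unique in the genome. Of the 32-base words of its exons 4.55% occurred once, with a median of 5 copies, against 76.5% for H3-3B. The words within 200 bp of the H3-3A summit were all unique (370 of 370), as were 366 of 370 at the H3-3B downstream summit. Of protein-coding genes between 5 and 20 kb long, the class of both, 47.6% had a peak.

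H2AZ1 and H2AZ2, which encode the H2A.Z proteins found around start sites, had no peak, but their surroundings differed. H2AZ1 (chromosome 4, 99948086 to 99950355, minus strand) had no summit within 100 kb, and the nearest lay 240 kb upstream of its gene record (fold 4.50, 7 fragments). H2AZ2 (chromosome 7, 44826791 to 44848087, minus strand) had 10 summits within 100 kb of its TSS, the nearest to the gene record 15020 bp beyond its end (fold 4.71, 7 fragments). The 1 kb downstream of the TSS was 61.3% GC in H2AZ1, the same as in CENPA, and 54.3% in H2AZ2, the lowest of the 9 genes. Chromosome 4 had 3.94 peaks per Mb and chromosome 7 had 9.32, where the genome had 11.5. A peak was found by the same rule at 30.4% of protein-coding genes on chromosome 4 and at 42.8% on chromosome 7. Of the exon words 60.6% were unique in H2AZ1 and 77.6% in H2AZ2. The part of composition, neighbourhood and sequence copies in these missing peaks was not tested. A gene without a called peak is below the authors' threshold, at which the lowest pileup was 5 fragments, and is not shown to lack the mark.

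H2AX and H1-10 are intronless, like the replication-dependent genes, and both had peaks. H2AX encodes the variant that is phosphorylated around DNA breaks (chromosome 11, 119093874 to 119095465, minus strand). Its peak, chr11:119094400-119094679, had 8 fragments over a background of 1.11 and a fold of 4.27 (−log10 q 2.35). The summit lay in the 3' UTR, 262 bp beyond the last base of the stem-loop printed above, in the part that only the polyadenylated mRNA holds.

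H1-10, which encodes the linker histone H1.10 (chromosome 3, 129314771 to 129316286, minus strand), had a peak in its coding sequence and one in its 3' UTR. The former, chr3:129315309-129315560, had 12 fragments over 2.05 and a fold of 4.26. The latter, chr3:129314814-129314974, had 9 fragments over 1.54 and a fold of 3.94, with its summit 1443 bp from the TSS. Both also belong by the same rule to H1-10-AS1, a non-coding gene on the opposite strand, and the peaks do not tell the 2 genes apart. Of all protein-coding genes under 5 kb, the length class of H2AX, H1-10 and H2AZ1, 26.7% had a peak by the same rule. Of those with 1 exon it was 10.6% (106 of 1001).

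MACROH2A1 and MACROH2A2 encode macroH2A proteins, which carry a large globular domain beside the histone fold. They are the longest of the 9 genes, at 65.5 and 59.7 kb. MACROH2A1 (chromosome 5, 135334381 to 135399914, minus strand) had 3 peaks. That in the first intron printed above had 8 fragments over 1.03 and a fold of 4.43. It also belongs by the same rule to another annotated gene, which has no symbol. A second in the same intron, 2450 bp from the TSS, had 8 over 1.30 and a fold of 3.92. The third, chr5:135370028-135370195, had 10 fragments over 1.46 and a fold of 4.48, and lay in coding sequence 29089 bp from the canonical TSS, 4 bp from an internal TSS.

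MACROH2A2 (chromosome 10, 70052544 to 70112282, plus strand) had 1 peak, in its first intron, with 7 fragments over 1.02 and a fold of 3.95 (−log10 q 1.96). It was the only gene of the 7 whose peak lay more than 1 kb from every TSS. Of protein-coding genes between 20 and 100 kb long, 51.7% had a peak by the same rule.

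CENPA encodes the H3 variant that marks centromeres. Its peak chr2:26786430-26786643, in the first intron of the canonical transcript, had 12 fragments over 1.02, the highest fold of the 17 peaks (6.42) and their only −log10 q above 5 (5.13). Its fold was above that of 97.9% of all peaks. The gene record (chromosome 2, 26764289 to 26801067, plus strand) held 7 peaks, the most of the 9 genes, but the other 6 lay 6680 to 21540 bp upstream of the canonical TSS. These 6 also belong to SLC35F6, a neighbouring gene at whose start the longest CENPA transcript begins. Their folds ran from 3.61 to 4.28. With the canonical transcript of each gene alone, CENPA kept 1 peak, H3-3B lost the peak shared with UNK, and the 9 genes had 10 peaks, still at 7 genes. A peak was then found at 45.0% of all protein-coding genes.

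Across the 17 peaks the pileup ran from 6 to 13 fragments (median 9), and 13 peaks had 10 or fewer. The median fold was 4.26 (range 3.61 to 6.42) and that of all peaks 4.18. Of the 17 peaks 10 lay in canonical transcripts, 6 of them in introns, 2 in coding sequence and 2 in 3' UTRs. The same fold can arise from different pileups over different backgrounds, so its order is not an order of pileup. The nearest peaks left outside the rule lay 3211 bp beyond the end of H3-3B, 3780 bp beyond that of H1-10 and 3871 bp beyond that of MACROH2A2. The peak furthest outside a gene record that was still counted was the H3-3B peak at 366 bp.

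**Figure D2:**
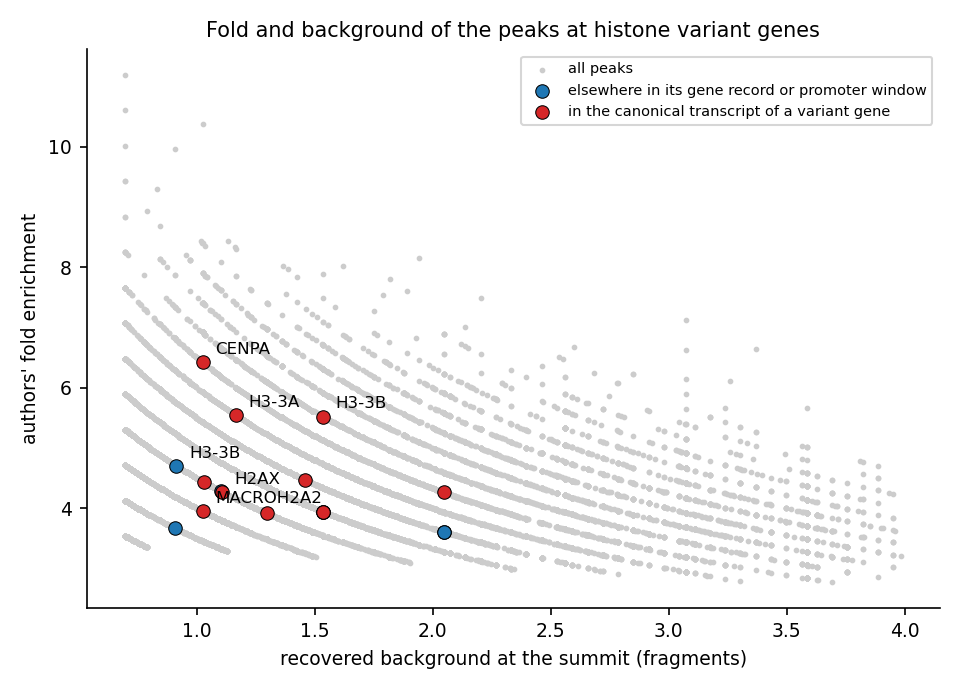
Authors' fold (y) against the recovered background in fragments (x) of each peak; grey, all peaks with a background under 4; red and blue, peaks at the 9 genes inside and outside canonical transcripts (3 points lie under others of equal value). Each curved grey band is 1 pileup, and the CENPA, H3-3A and downstream H3-3B peaks have the highest folds of the 17, at 6.42, 5.54 and 5.52.

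The replication-dependent genes, which encode the bulk of H1, H2A, H2B, H3 and H4, had a peak by the same rule in 3 of 69 cases (4.35%, 0.906 to 12.2%), against 7 of 9 variant genes and 47.2% of all genes. All 69 have a canonical transcript of 1 exon, and the 10.6% of all genes of 1 exon and under 5 kb lies inside that interval. Of the 57 replication-dependent genes under 5 kb, 1 had a peak (1.75%, 0.0444 to 9.39%). That interval ends below the 10.6%, but it treats the genes as independent. They lie side by side in clusters and are themselves among the genes behind the 10.6%, so no difference is drawn from it. Within 1 kb of a TSS, 1 replication-dependent gene had a peak, H3-4 on chromosome 1 (7 fragments, fold 3.97). Its summit lay 538 bp downstream of the TSS, just beyond the end of this gene of 516 bp. By the same rule that peak also belongs to another annotated gene, which has no symbol. H2AC25 had 2 peaks (folds 3.67 and 4.46) and H2BC6 had 1 (fold 4.71), none of them in the canonical transcript. These 3 lay 5149 and 4314 bp downstream and 1699 bp upstream of the canonical TSS, within long transcripts of gene records that span 23097 and 12597 bp.

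The distance from the canonical TSS to the nearest summit had a median of 824 bp in the variant genes and 49.2 kb in the replication-dependent genes (range 538 bp to 374 kb). Over all protein-coding genes the median was 18.4 kb. The classes overlapped, since H3-4 lay closer to a summit than H3-3A, H1-10, H2AX and MACROH2A2 did, and H2AZ1 and H2AZ2 lay 240 and 36.2 kb away.

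The clusters were not all poor in peaks as regions. The chromosome 6 cluster (25723397 to 27893891, 55 genes) held 11 peaks in 2.17 Mb, or 5.07 per Mb (2.53 to 9.07), and chromosome 6 had 5.66 per Mb. Of these 11 peaks, with 6 to 9 fragments each, 2 lay within 10 kb of a replication-dependent gene, and the median distance was 110 kb. The cluster at 149782689 to 149887965 of chromosome 1 (11 genes) held no peak in 105 kb, with an exact interval of 0 to 35.04 per Mb that holds the 14.0 per Mb of that chromosome, so a deficit was not detectable there. Much of its gene sequence is not unique. Of the exon words, 0% were unique in H4C14, H3C14, H2AC18, H2AC19, H3C15 and H4C15. The share was 14.1% in H2BC18, 19.9% in H3C13, 60.5% in H2AC20, 88.1% in H2BC21 and 91.2% in H2AC21. The part of these sequence copies in the lack of peaks was not tested. The small cluster at 228424845 to 228463104 of chromosome 1 (3 genes) held 4 peaks, or 105 per Mb (28.5 to 268).

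Composition differed between both classes beside these counts. GC content of the 1 kb downstream of the TSS had a median of 68.0% in the variant genes (range 54.3 to 72.1%) and 51.3% in the replication-dependent genes (44.8 to 67.8%). It was 55% or more in 8 variant genes, and 6 of these had a summit 0 to 1 kb downstream. It was 55% or more in 13 replication-dependent genes, and 1 of these had such a summit. Among all protein-coding genes the share was 26.3% at 55% GC or more, 6.51% at 45 to 55%, where 55 of the 69 replication-dependent genes lay, and 32.9% at 65% or more. The replication-dependent genes are also shorter, with a median of 503 bp against 10.2 kb, so that 1 kb downstream of the TSS reaches past most of them. Of the words of their exons a median of 91.2% was unique, and under 50% was in 13 of the 69 genes. The part of composition, length and sequence copies in the difference was not tested.

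**Figure D3:**
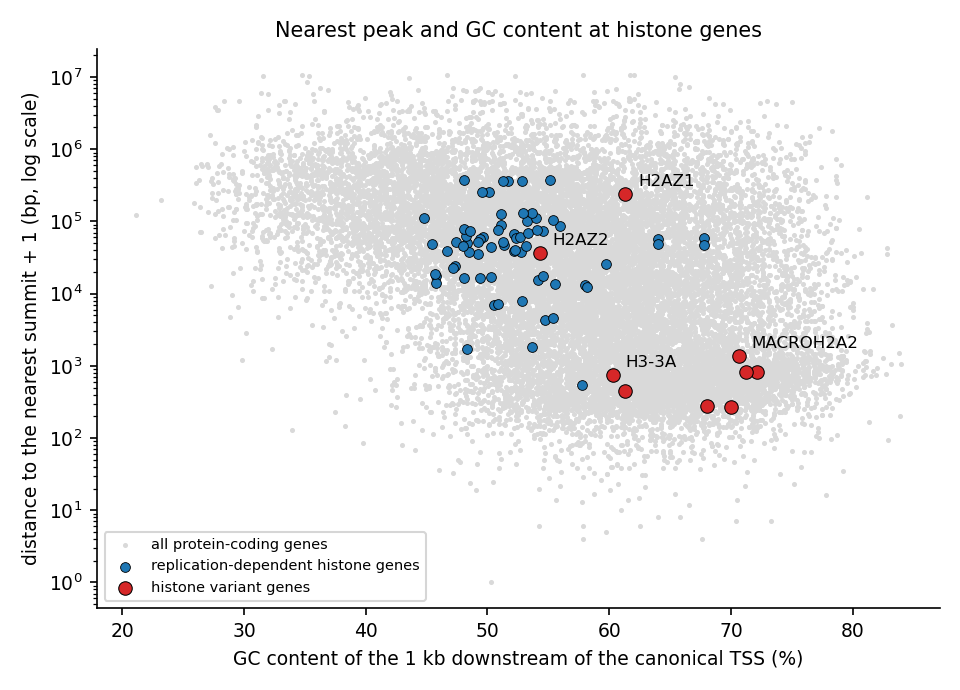
Distance from the canonical TSS to the nearest summit (y, bp plus 1, log scale) against GC content of the 1 kb downstream (x, %), for all protein-coding genes (grey), 69 replication-dependent (blue) and 9 variant genes (red). The 7 variant genes with a peak sit between 270 and 1351 bp at 60.3 to 72.1% GC, while most replication-dependent genes lie at 45 to 55% GC and further away.

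Among other histone genes outside the clusters, H1-8, the oocyte linker histone gene, had 1 peak at 300 bp downstream (fold 3.59, 7 fragments). H1-7, H2AJ, H3-5 and H4C16, an H4 gene on chromosome 12 that also holds the stem-loop, had none. Their nearest summits lay 256, 113, 81.5 and 109 kb away.

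Genes for the chaperones and remodellers that place histones had a peak in 22 of 34 cases (64.7%, 46.5 to 80.3%), and 9 had one 0 to 1 kb downstream of the canonical TSS, or 26.5% against 17.8% of all genes. The most peaks were at CABIN1 (11 peaks), a partner of the H3.3 chaperone HIRA, TONSL (9), which binds newly made histones, and RUVBL2 (6), RUVBL1 (5), KAT5 (4) and EP400 (4) of the complexes that exchange H2A.Z. The highest folds were at CHAF1B (6.42) of the replication-coupled chaperone CAF-1, SRCAP (6.27), the ATPase that places H2A.Z, RUVBL2 (6.23) and UBN1 (5.93), another HIRA partner. The summits of highest fold lay 33112 bp downstream of the TSS at CHAF1B, 39642 bp at SRCAP and 13421 bp at RUVBL2. The gene records of CHAF1B and SRCAP span 33.6 and 43.2 kb, so their summits lay towards the far end. At UBN1 the summit lay upstream of the TSS.

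Of 15 factors for the expression and 3' processing of replication-dependent histone mRNAs, 9 had a peak (60.0%, 32.3 to 83.7%). SYMPK, a scaffold of the cleavage complex, had 6 (highest fold 5.52), and the transcription factor YY1 had 3 (4.71). CPSF2, a cleavage factor subunit, SLBP, which binds the stem-loop, and GON4L had 2 each. That of highest fold lay 10425 bp downstream of the TSS at CPSF2 (5.89) and 5807 bp at SLBP (4.52). Their other peak lay 238 bp downstream at CPSF2 and 839 bp at SLBP. A peak 0 to 1 kb downstream of the canonical TSS was found at 4 of the 15 genes (26.7%, against 17.8% of all genes). The 47.2% of all genes lies inside the intervals of both lists.

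**Figure D4:**
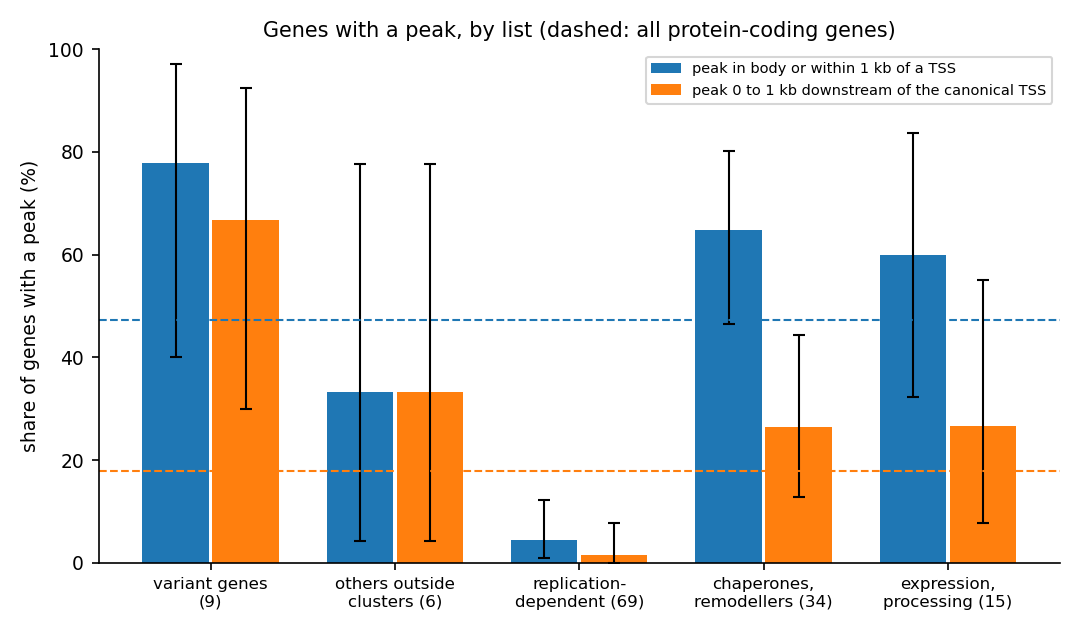
Share of genes with a peak (y, %) in 5 lists, with the number of genes in brackets; bars are the share and lines the 95% exact binomial interval. Blue counts peaks in the gene record or within 1 kb of a TSS and orange those 0 to 1 kb downstream of the canonical TSS; dashed lines are all protein-coding genes, 47.2% and 17.8%, and the replication-dependent genes have the lowest bars of the 5 lists.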

How the data were processed

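Paired-end libraries were made from sheared chromatin, 1 precipitated for H4R3me2a and 1 of input DNA, per the labels. The submitters' processing notes name Bowtie2, MACS2, deepTools and the build GRCh38. Of versions, parameters and read totals nothing is stated, so depth is described by the pileup. The deposited table gives each peak's pileup (a signal of whole fragments, not normalized), its fold (a ratio over local background) and the −log10 of its p-value and q-value, all by the authors' caller and used here to describe peaks.

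Background was recovered as (pileup + 1) / fold − 1. Genes, TSSs and canonical transcripts came from GENCODE release 44, and sequence from its GRCh38 genome, beyond whose chromosomes no peak ended. The 32-base words were counted by exact match on both strands. Gene assignment was tested on simulated data. The members and lists were chosen with earlier results of these data known. All 9 members were named. The result for 1 gene of the context lists is not reported here. Of the context lists, genes were named by number of peaks and fold. Shares carry exact (Clopper-Pearson) 95% intervals, with no p-value, since genes do not replicate a condition. Python 3.11.15, pandas 2.3.3, NumPy 2.4.6, SciPy 1.17.1 and Numba 0.67.0 were used. Alternatives were stricter peak sets, other TSS windows, overlap by any base, merged peaks, wider clusters and, chosen after seeing the data, the canonical transcript alone.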

Additional observations from a re-analysis of the deposited data

How the results depend on the processing

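Over 10 results and 10 alternatives, 57 of 79 values stayed within 1.5 times the reported one, and 22 did not. The 7 variant genes with a peak remained 7 in number with TSS windows of 500 bp and 3 kb, overlap by any base, merged peaks, TSSs of protein-coding transcripts and canonical transcripts. They were 6 at a fold of 4 or more (38.5% of all genes then had a peak) and 5 with only the peaks at or above the median −log10 q (33.1%).

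At a −log10 q of 5 or more there was 1 variant gene and 1 peak (CENPA), also the only 1 within 1 kb of a TSS, with 0 within 1 kb of a 5' end. The replication-dependent genes and their clusters then had 0, the other genes outside clusters 0, the chaperones 5, the factors 1, and all protein-coding genes 1048 (5.25%). With those at or above the median −log10 q the variant genes had 6 peaks and 2 genes with one at the 5' end, the replication-dependent genes 1 and their clusters 1.30 peaks per Mb, and the other genes 0. At a fold of 4 or more the peaks at variant genes were 9, the other genes with a peak 1 and the cluster density 3.89 per Mb. A window of 500 bp left 2 variant genes with a peak at the 5' end. With canonical transcripts alone the variant genes had 10 peaks and 1 replication-dependent gene had a peak. With 100 kb added on either side the clusters together had 14.1 peaks per Mb against 6.48. The 3-gene cluster of chromosome 1 then held 25 peaks (105 per Mb) and the 11-gene cluster 5 (16.4 per Mb). The chromosome 6 cluster, with 55 genes, held 11 (4.64 per Mb, against 5.07 without the added sequence). The stricter peak sets hold fewer peaks by construction. No replicate could be left out, and no paired analysis was possible because each group had 1 library. The effect of depth, whose read totals are not stated, was not tested.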
